A study of Mus musculus with 12 samples.

Results

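The last step of a retinoic acid time course in P19 cells, from day 4 (D4) to day 6 (D6), was examined for mRNA abundance and poly(A) tail length. P19 is a mouse embryonal carcinoma line, grown from a teratocarcinoma, and all cells here were wild type. D4 and D6 cultures had both received 500 nM retinoic acid in NDiff 227 medium on plates coated with poly-L-lysine, with fresh medium every day, and differed only in the 4 or 6 days of treatment. The comparison used the 3 D4 and the 3 D6 libraries, 6 of the 12 libraries of the course. The others were untreated cells (D0) and cells after 2 days of treatment (D2), which shared the estimate of spread in the abundance test. Members were the nanopore direct RNA reads labelled D4 or D6 with a passed tail estimate and a match to a nuclear mRNA gene that is no pseudogene, 2146394 of 4274320 such reads in all libraries, from 13131 of 14042 genes.

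Retinoic acid binds nuclear receptors that act on genes holding retinoic acid response elements, among them Hox genes and the enzymes that break retinoic acid down. Treated P19 cells leave the pluripotent state, pass through a neural progenitor state and form postmitotic neurons, which stop replicating DNA and lay down axonal and dendritic cytoskeleton. The poly(A) tail at the 3′ end of an mRNA is bound by poly(A)-binding protein and takes part in translation and decay. Messages of ribosomal proteins and of several translation factors start with a pyrimidine run, the 5′ terminal oligopyrimidine (TOP) tract, through which their translation is tied to growth signals.

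The D4 libraries held 252203, 435389 and 421916 kept reads and the D6 libraries 271499, 428800 and 336587. All 12 listed neuron markers had reads, and their summed level was 1939 to 2218 CPM (reads per 1000000 reads of a library) at D4 and 3166 to 3466 at D6. The 9 neural progenitor markers summed to 2760 to 3053 and to 2998 to 3436, overlapping. Of 10 glial markers 5 had reads, with Aqp4, Aldh1l1, S100b, Sox10 and Olig2 at 0. The glial markers summed to 29.4, 26.3 and 46.55 CPM at D4 and 64.8, 48.3 and 46.67 CPM at D6, narrowly without overlap. The part of glial cells in the results below was not tested. Neural crest markers, 4 of 6 with reads, summed to 29.4, 33.4 and 44.2 CPM at D4 and 54.0, 54.6 and 74.1 at D6, without overlap, with Sox10 and Tfap2b at 0, and their part in the results below was not tested. Fibroblast and endoderm markers summed to at most 11.6 CPM in a library, with Col1a1 and Sox17 at 0 in all 6. The 6 pluripotency markers summed to 0 in each D4 library and to 10.8, 8.41 and 8.24 CPM at D6, with Nanog at 0 in all 6, while the longer pluripotency list summed to 46.3, 43.0 and 51.2 CPM at D4 and 28.8, 35.7 and 49.4 CPM at D6, overlapping. Every sequencing run held libraries of 1 day only.

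CPM are relative to a library total scaled by the trimmed mean of M-values (TMM), and fold changes and adjusted p-values come from limma-voom with Benjamini-Hochberg adjustment. Of 9309 genes tested, 384 rose from D4 to D6 (4.13% of the genes tested) and 404 fell (4.34%). The groups did not overlap, D6 above D4 in all libraries, for 12.4% of genes and the other way for 12.3%. Replicates are separate libraries of 1 line, and p-values measure the spread between them. In these bulk samples fewer cells of a type and less RNA per cell cannot be told apart. The number that rose was 201 without D4 replicate 2, and the number that fell was 236 without D4 replicate 2, 200 without D6 replicate 2 and 218 without D6 replicate 3. Without TMM scaling 584 genes rose and 255 fell, so that 69.6% of calls were upward in place of 48.7%, and the median of all genes then lay at 0.146 on the log2 scale.

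The largest rises and falls were taken among called genes whose D4 and D6 libraries did not overlap and averaged 20 reads or more, so their separation was set by the choice. The 12 largest rises came from several classes: small GTPases, cytoskeletal proteins of axons and dendrites, a retinoic acid hydroxylase and homeodomain factors. Arl4d, an ARF-like small GTPase (chr11:101665541-101667832, plus strand, mm10), was measured at 21.0, 38.2 and 14.0 CPM in the D4 libraries and at 195, 124 and 121 CPM in the D6 libraries. It rose 5.82-fold, by 2.54 ± 0.33 on the log2 scale (SE, n = 3 per day; limma-voom adjusted p = 2.76e-08). Mapt, which encodes the axonal microtubule protein tau, had 16.8, 14.3 and 34.9 CPM at D4 and 72.0, 126 and 102 CPM at D6. The log2 fold change of Mapt was 2.19 ± 0.35 (adjusted p = 4.51e-06). The small GTPases Rnd2 and Rnd3, which act on the actin cytoskeleton of migrating neurons, rose by 1.87 and 1.61 on the log2 scale. Fabp7, a brain fatty acid binding protein of radial glia, had 172, 160.0 and 130.3 CPM at D4 and 573, 569.6 and 519 CPM at D6, a 3.65-fold rise. The actin-binding kelch protein Enc1 (log2 fold change 1.85) and the POU factor Pou3f3 (1.70) completed the 12 with Cyp26a1, Hoxb9, Map2, Vamp2 and Basp1, which are described with their groups.

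The 12 largest falls among genes with that many reads came from classes as varied. Metrn, which encodes the secreted neurotrophic factor meteorin (chr17:25793221-25797136, minus strand), was measured at 1030.3, 1015 and 1045 CPM at D4 and at 195, 179 and 200.4 CPM at D6. Metrn was 5.39-fold lower at D6 (log2 fold change -2.43 ± 0.13, adjusted p = 3.11e-23). Serpinf1, the secreted serpin PEDF, went from 122, 88.3 and 93.1 CPM to 18.0, 21.0 and 8.24 CPM and was 6.02-fold lower. Slc2a1, the glucose transporter GLUT1, fell from 202, 212 and 196 CPM to 43.2, 67.3 and 43.9 CPM (log2 fold change -1.93 ± 0.23). Eif4ebp1, which encodes 4E-BP1, a repressor of the cap-binding protein eIF4E, fell by 1.90 on the log2 scale, the parathyroid hormone receptor Pth1r by 2.39, the actin-binding Tagln2 by 2.03, the adhesion molecule Cercam by 1.99 and the tetraspanin Cd9 by 1.72. Galectin-1 (Lgals1, fell by 1.94), the potassium channel Kcnh2 (fell by 1.83) and the metal-binding metallothionein Mt2 (fell by 1.53) were the others.

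**Figure D1:**
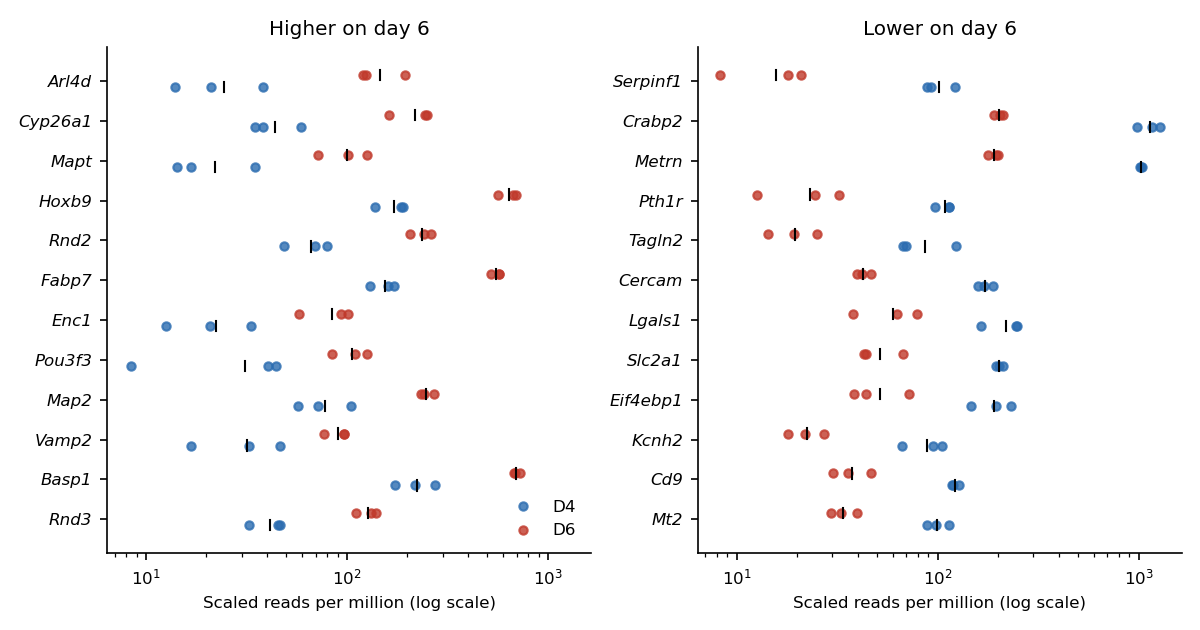
Scaled CPM (log axis) of the 12 genes with the largest rises (left) and the 12 with the largest falls (right), 1 point per library, D4 blue and D6 red, with a tick at each mean. For each gene, chosen to have no overlap, the 3 D6 points lie on 1 side of the 3 D4 points, with Arl4d at 14.0 to 38.2 and 121 to 195 and Metrn at 1015 to 1045 and 179 to 200.4.

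Most cytoskeletal genes of neurons rose. Of 38 listed, 36 were tested, 29 rose and 0 fell, with a median log2 fold change of 0.94 beside 4.13% of all tested genes that rose. Map2, which encodes a microtubule protein of dendrites, had 71.5, 57.3 and 105 CPM at D4 and 234, 271 and 242 CPM at D6. It rose 3.25-fold (1.70 ± 0.20 on the log2 scale, adjusted p = 2.3e-09). Basp1, a membrane protein of growth cones, had 219, 174 and 275 CPM and then 728, 677 and 684 CPM (log2 fold change 1.66 ± 0.14). Tubb3, the neuronal beta-tubulin, rose 1.9-fold from 433, 482 and 496 CPM to 1001, 843 and 884 CPM. Stmn2, a tubulin-binding protein of growth cones, rose from 307, 368 and 372 CPM to 724, 738 and 695 CPM. The kinase Dclk1 (log2 fold change 1.88), the microtubule-binding Dcx (1.57), the collapsin response mediator Dpysl3 (1.57), the kinesin heavy chain Kif5c (1.56) and the neuronal RNA-binding Elavl3 (1.43) were among the others that rose. The growth cone protein gene Gap43 and the neurofilament genes Nefm and Nefl, also members of the list, did not pass the test. Gap43 had 407.9, 496.6 and 398.0 CPM at D4 and 414.3, 376.2 and 378.9 CPM at D6, and the log2 fold changes of these 3 were -0.16, -0.16 and -0.09 (adjusted p = 0.495, 0.593 and 0.838). The intermediate filament gene Vim had 1716, 1893 and 1564 CPM at D4 and 1837, 1879 and 1614 CPM at D6, and its change did not pass the test (adjusted p = 0.807).

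Synaptic and vesicle genes were fewer in reads. Of 53 listed, 29 were tested, 15 rose and 2 fell, beside 4.13% and 4.34% of all tested genes. The median log2 fold change was 1.11, and it ranged from 0.43 to 1.28 over 20 alternatives of processing or libraries. The count that rose was 8 without D4 replicate 2, 8 at a mapping quality of at least 10, 9 by limma-trend, 9 in libraries thinned to equal depth and 3 with 10 reads required in every library. Vamp2, a SNARE protein of synaptic vesicles, had 46.3, 16.7 and 32.6 CPM at D4 and 97.3, 96.7 and 76.9 CPM at D6. Nsg1, an endosomal protein of neurons, had 122, 74.0 and 109 CPM and then 213, 223 and 249.8 CPM. The vesicle protein Syt11 rose by 1.53 on the log2 scale and the vesicle GTPase Rab3a by 1.87. Snap25, the SNARE protein of the presynaptic membrane, stood at 29.4, 19.1 and 11.6 CPM against 39.6, 44.1 and 32.9 CPM. Its call was close to the threshold (log2 fold change 1.11 ± 0.37, adjusted p = 0.0496) and was lost in 5 of the 6 fits that each left out 1 library, all but that without D6 replicate 3, where its log2 fold change ranged from 0.78 to 1.35. The 2 that fell were Sncb, which encodes beta-synuclein (log2 fold change -1.38), and the adaptor gene Bex1 (-0.56), whose call was lost without D4 replicate 1 (-0.50), D4 replicate 2 (-0.40), D6 replicate 2 (-0.55) or D6 replicate 3 (-0.42). With single libraries left out 0 or 1 of the list fell, with 0 without D4 replicate 1, D6 replicate 2 or D6 replicate 3, and 0 fell without TMM scaling.

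A part of the proneural factors rose and an effector of the Notch pathway, through which differentiating cells keep their neighbours in the progenitor state, fell. Of 33 tested, 14 rose and 1 fell (median log2 fold change 0.75), beside 4.13% and 4.34% of all tested genes. The count that rose was 9 at a mapping quality of at least 10, and 8 (with 0 that fell) where 10 reads were required in every library. Insm1, a zinc finger factor of newborn neurons, had 67.3, 107 and 100.1 CPM at D4 and 288, 223 and 258 CPM at D6, without overlap (log2 fold change 1.41 ± 0.19, adjusted p = 6.84e-08). Sox4, an HMG-box factor of early neurons, rose from 92.5, 124 and 112 CPM to 219.7, 267 and 266 CPM. Neurog2, a basic helix-loop-helix factor that starts neurogenesis, was low at D4 with 16.8, 7.16 and 4.66 CPM and had 54.0, 56.7 and 30.2 CPM at D6 (adjusted p = 0.000331). The HLH factor Ebf3 and the bHLH factor Nhlh1 rose by 2.00 and 1.62 on the log2 scale, and Myt1 and Neurod4, a zinc finger and a bHLH factor, also rose. The gene that fell was Hes1, the Notch effector that represses proneural genes, with 88.3, 66.8 and 95.4 CPM at D4 and 21.6, 31.5 and 38.4 CPM at D6 (adjusted p = 0.00122).

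Neural progenitor genes split. Of 39 tested, 6 rose and 7 fell, beside 4.13% and 4.34% of all tested genes, and the median log2 fold change was 0.07. The summed level of the list was 10307, 11257 and 9971 CPM at D4 and 8181, 7711 and 7803 CPM at D6, all lower, and Mdk alone made up 3764 to 4763 of it at D4. Mdk, which encodes the secreted growth factor midkine, fell from 4142, 4763 and 3764 CPM to 1819, 1496 and 1677 CPM (log2 fold change -1.36 ± 0.09, adjusted p = 6.09e-20). Irx3, a homeodomain factor of the neural tube, fell from 185, 203 and 275 CPM to 79.3, 98.8 and 79.6 CPM. The glutamate transporter Slc1a3 fell from a mean of 54.4 to 19.7 CPM. Against these, Fabp7 rose, as did Id4, an inhibitor of bHLH factors, from 25.2, 9.55 and 2.33 CPM to 119, 84.1 and 76.9 CPM (log2 fold change 3.37 ± 0.47). Sox2, the HMG-box factor of neural progenitors, had 156, 162 and 149 CPM and then 198, 221 and 176 CPM, with an adjusted p of 0.197. Nes, the intermediate filament nestin, had 114, 71.6 and 83.8 CPM and then 36.0, 79.9 and 65.9 CPM, with overlapping groups (adjusted p = 0.303). Of 16 tested genes of neuron subtypes, 2 rose (the factors Pou3f1 and Bhlhe22) and 3 fell (among them the homeodomain factor Nkx6-1), most of them at few reads. Of these calls, that of Bhlhe22 was lost without D4 replicate 3 (log2 fold change 1.43) and that of Nkx6-1 without D6 replicate 2 (-1.70) or 3 (-2.0).

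**Figure D2:**
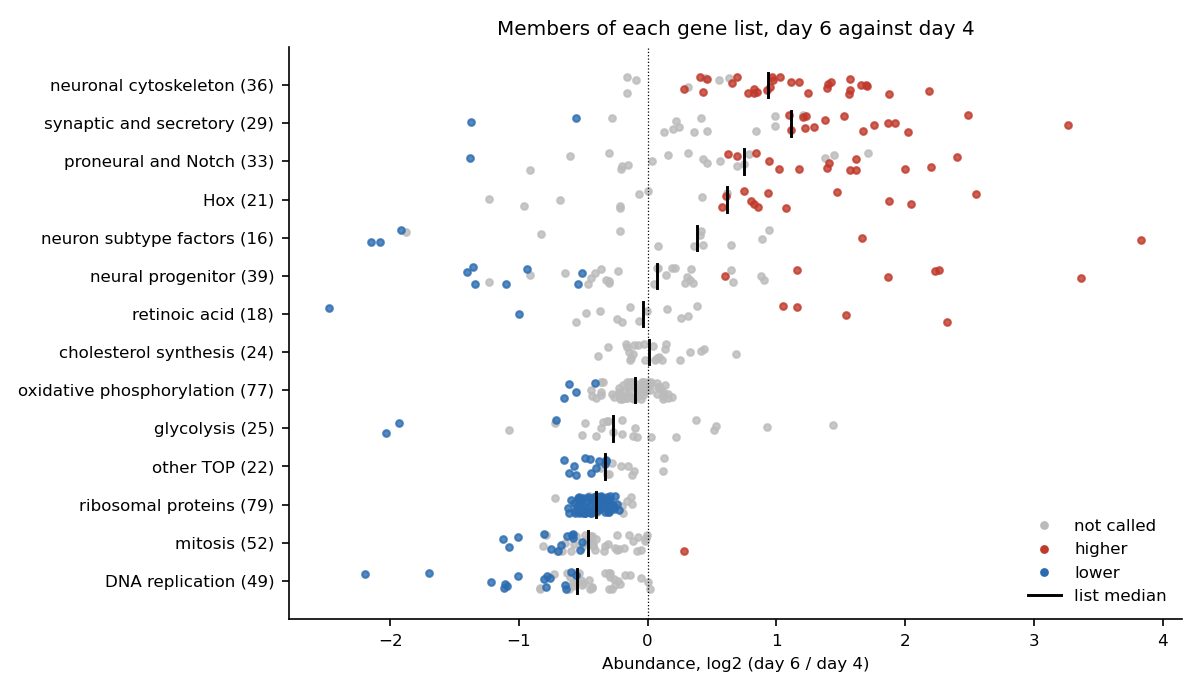
Log2 fold change from D4 to D6 of every tested gene in each listed group, 1 point per gene, red or blue where it was higher or lower by the limma-voom test and grey where it was not called, with a bar at the group median and the number of genes in brackets. The neuronal cytoskeleton (median 0.94, 29 of 36 rose) and the ribosomal proteins (median -0.40, 69 of 79 fell) lie on opposite sides of 0.

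A sequence was looked for in promoters because proneural bHLH factors bind the E-box CAGCTG. RefSeq (GRCm38.p6) promoter sequence matched 7477 of the tested genes, among them 288 of those that rose and 312 of those that fell. CAGCTG, a palindrome that reads alike on both strands, was present in the 250 bases before a listed start in 13.3% of all promoters, in 23.6% (68) of genes that rose and in 8.97% (28) of genes that fell. For the E-box CAGATG, read on either strand, the shares were 11.2%, 12.8% and 8.01%. These are counts of letters, with no measurement of binding, and the motifs were chosen with the abundance calls known. Windows are shown for 4 genes that rose, with the CAGCTG in capitals: Sox4 (chr13:28953893-28953922) and Sox11 (chr12:27342911-27342940), HMG-box factors of early neurons (the call of Sox11, 0.62 on the log2 scale, was lost without D6 replicate 2 at 0.56), Cyp26b1 (chr6:84593811-84593840), a retinoic acid hydroxylase, and Ngfr (chr11:95587706-95587735), a neurotrophin receptor with too few reads to be tested without D6 replicate 2 or 3, all on the minus strand.
Sox4: cagcagaaatctCAGCTGtacttctagccc
Sox11: gggggacacgcgCAGCTGtgcgcactcgcg
Cyp26b1: gggctcttcctttggacaCAGCTGccagtt
Ngfr: attgccttcaccCAGCTGctcccgcccgct

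Many Hox genes, which give cells their position along the body axis, rose. Of 52 listed, 21 were tested, 12 rose and 0 fell (median log2 fold change 0.62), beside 4.13% and 4.34% of all tested genes. By limma-trend 7 rose, and without D6 replicate 1 there was 1 that fell. Hoxb9 had 139, 191 and 186 CPM at D4 and 566, 691 and 669.9 CPM at D6, 3.66-fold higher (log2 fold change 1.87 ± 0.15, adjusted p = 1.23e-15). Restricted to reads with a mapping quality of at least 10, its log2 fold change was 1.24. Hoxb7 had 63.1, 76.4 and 90.8 CPM and then 213, 225 and 219.6 CPM. Hoxb8, with 479, 415 and 507 CPM followed by 829, 757 and 906 CPM, and Hoxb2, with 547, 542 and 472 CPM followed by 919, 782 and 944 CPM, rose by 0.82 and 0.75 on the log2 scale. In Hoxb7, Hoxb8 and Hoxb2 the lowest D6 library was above the highest D4 library. Hoxb5 rose by 0.61, but its log2 fold change was 0.20 (adjusted p = 0.60) on reads of the higher mapping quality. Neighbouring Hox genes overlap on the genome, and reads of overlapping transcripts could have been assigned to either.

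Some genes of retinoic acid handling rose and some fell, while most were not called. Of 18 tested, 4 rose and 2 fell, beside 4.13% and 4.34% of all tested genes. The other 12 were not called, and the median log2 fold change was -0.04. The enzymes that lower active retinoic acid rose: Cyp26a1 and Cyp26b1, which hydroxylate it, and Dhrs3, which reduces retinaldehyde. Cyp26a1 (chr19:37697798-37701536, plus strand) had 58.9, 38.2 and 34.9 CPM at D4 and 245, 162 and 249.8 CPM at D6, and its log2 fold change was 2.32 ± 0.26 (adjusted p = 4.03e-10). Cyp26b1 had 151, 134 and 239.7 CPM and then 357, 313 and 527 CPM, and Dhrs3 had 46.3, 38.2 and 32.6 CPM and then 112, 105 and 121 CPM. The cellular retinoic acid binding proteins fell. Crabp2, which carries retinoic acid to its nuclear receptors (chr3:87948666-87953376, plus strand), had 1278, 1172 and 985 CPM at D4 and 205, 191 and 211 CPM at D6. It was 5.55-fold lower (log2 fold change -2.47 ± 0.14, adjusted p = 7.4e-23). Crabp1, which holds retinoic acid in the cytoplasm, fell from 812, 917 and 838 CPM to 512, 412 and 384 CPM (adjusted p = 2.3e-09). The homeodomain factor Pbx3, a partner of Hox proteins, was the other member that rose (log2 fold change 1.05).

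A retinoic acid response element of the DR5 type was searched for as a pair of hexamers in the same direction, each of them AGTTCA, the variant AGGTCA, the variant GGTTCA or the variant GGGTCA, with 5 bases between them, on both strands. It was found in 4 of the 7477 promoters (0.0535%). Among genes that rose, that of Cyp26a1 was the only one holding it. Its window (chr19:37697769-37697798, plus strand) is printed with the element in capitals, which is read on the opposite strand.
Cyp26a1: ttaaagaTGAACTTTGGGTGAACTaatttg

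Several of these genes had moved before D4. Crabp2 stood at 58.3 to 86.5 CPM in the D0 libraries and at 2036 to 2488 at D2. Metrn had 110 to 138 CPM at D0 and 972 to 1035 at D2, and Mdk 612 to 880 and 4129 to 4804, so that each of these genes that fell after D4 had been lower in untreated cells than at D2. Rnd2, at 328 to 359 CPM in D0 and 57.5 to 94.7 in D2, and Stmn2, at 309 to 342 and 57.5 to 98.8, showed the opposite course. Of all tested genes 18.2% had every D2 library below every D0 library and 10.1% had every D2 library above, beside 22.4% and 14.3% of the 384 genes that rose after D4 and 36.1% and 17.8% of the 404 that fell. No read at D0 was found for 33 of the 384 genes that rose (8.59%), for 3 of the 404 that fell (0.743%) and for 73 of all tested genes (0.784%). Genes entered the test with at least 30 reads over the 12 libraries. One without reads at D0 entered through later days only, so these last shares were partly set by that filter. The D2 libraries held 120326 to 241064 kept reads, against 449406 to 613756 at D0, and the part of depth in the shares of D2 against D0 was not tested.

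**Figure D3:**
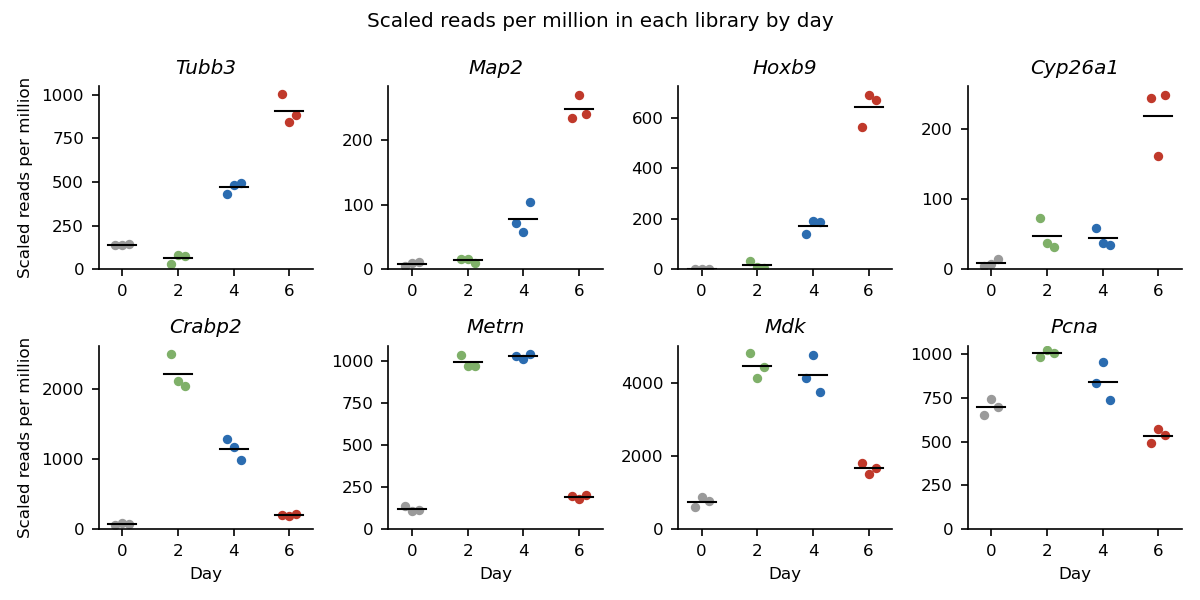
Scaled CPM (linear axes from 0) of 8 genes against day of treatment (0, 2, 4 and 6), 1 point per library and a bar at the mean of each day. Tubb3, Map2, Hoxb9 and Cyp26a1 are highest at D6, while Crabp2, Metrn, Mdk and Pcna are highest at D2 or D4 and lower at D6 (Crabp2 at 2036 to 2488 in D2 and 191 to 211 in D6).

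Part of the DNA replication genes fell. Of 49 tested, 0 rose and 15 fell, with 2 of the 49 above 0 and a median log2 fold change of -0.55, beside 4.34% of all tested genes that fell. The count that fell was 9 without D4 replicate 1, D4 replicate 2, D6 replicate 1 or D6 replicate 3, each left out in turn, 9 without TMM scaling or at a mapping quality of at least 10, and 5 where D6 was restricted to its December runs. Pcna, the sliding clamp of the replication fork, had 837, 953 and 740.2 CPM at D4 and 494, 572 and 535 CPM at D6, all lower (log2 fold change -0.64 ± 0.11, adjusted p = 3.02e-05). Mcm6, a subunit of the replicative helicase, fell from 206, 258 and 228 CPM to 129.7, 141 and 132 CPM. Both were below their D4 range in each D6 library.

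Mitosis genes followed, with 13 of 52 tested that fell and 1 that rose, beside 4.34% and 4.13% of all tested genes. Their median log2 fold change was -0.47. The count that fell was 8 without D6 replicate 3 and 7 at a mapping quality of at least 10. Ccnb2, which encodes cyclin B2, had 210.3, 201 and 161 CPM and then 101, 79.9 and 79.6 CPM (log2 fold change -1.12 ± 0.20, adjusted p = 3.2e-05). The member that rose was Stmn1, a microtubule-destabilising protein that neurons also carry, by 0.28 (adjusted p = 0.0423), a call lost without D4 replicate 2 (0.28), D4 replicate 3 (0.28), D6 replicate 1 (0.24) or D6 replicate 2 (0.33). Letters of an E2F type (the octamer TTTCCCGC, the octamer TTTGGCGC or the octamer TTTCGCGC, both strands) were present in 3.84% of all promoters in 10 of 40 promoters of the DNA replication list (25%), in 2 of 45 of the mitosis list (4.44%) and in 5.13% of all genes that fell. Windows of 2 genes that fell are shown with the motif in capitals, Mcm6 (chr1:128359734-128359763) and Rfc3, a clamp loader subunit (chr5:151651209-151651238), both on the minus strand.
Mcm6: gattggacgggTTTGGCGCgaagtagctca
Rfc3: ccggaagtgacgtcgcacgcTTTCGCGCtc

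Most ribosomal protein genes fell, by small amounts. All 79 tested had a log2 fold change below 0, from -0.72 to -0.12 with a median of -0.40, and 69 passed the test. The count was 43 without D6 replicate 2, 42 on reads with a mapping quality of at least 10, and 59 without TMM scaling, where the median was -0.26. Rpl23, a protein of the large subunit, had 7039, 6981 and 6238 CPM at D4 and 5184, 4521 and 4374 CPM at D6, with all D6 libraries below all D4 libraries (log2 fold change -0.53 ± 0.06, adjusted p = 4.98e-10). Rps27a, which encodes ubiquitin fused to a small-subunit protein, fell from 6964, 6768 and 6105 CPM to 4834, 4349 and 4533 CPM. As a share of kept reads, ribosomal protein messages made up 29.1, 28.0 and 27.0% at D4 and 25.0, 22.2 and 23.0% at D6. The means were 28.0 ± 1.10% and 23.4 ± 1.43% (SD, n = 3), and p was 0.1 in a two-sided exact permutation test, the smallest value that 3 libraries against 3 allow. Several ribosomal proteins have near-identical processed copies in the genome, so their counts are uncertain to that extent.

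Other TOP messages were next, with 12 of 22 that fell and 0 that rose, beside 4.34% and 4.13% of all tested genes. Their median log2 fold change was -0.33. The count that fell was 6 without D4 replicate 2 and 9 without TMM scaling, where the median was -0.19. Eef1a1, the elongation factor that delivers aminoacyl-tRNA, fell from 12721, 12899 and 11663 CPM to 10368, 9796 and 9642 CPM (log2 fold change -0.32 ± 0.05, adjusted p = 2.32e-07). Eef1b2, its exchange factor, fell by 0.55 and the poly(A)-binding protein gene Pabpc1 by 0.49 on the log2 scale. Eef2, the translocation factor, had 2002, 1831 and 2241 CPM against 1718, 1986 and 1889 CPM, did not pass the test (adjusted p = 0.522) and changed sign without TMM scaling. A pyrimidine run of at least 8 bases in the 30 bases from 10 before to 20 after a listed start was present in 13.8% of all promoters, in 24 of 58 ribosomal protein genes (41.4%) and in 6 of 16 other TOP genes (37.5%). Over all genes that rose the share was 17.7%, and over all that fell 18.6%. Windows from these 2 lists, all of genes that fell, are shown with the run in capitals: Rps6 (chr4:86857348-86857377, minus), Rpl19 (chr11:98026914-98026943, plus), Eef1a1 (chr9:78481705-78481734, minus) and Rack1, a scaffold of the small subunit (chr11:48800350-48800379, plus). In the window of Rpl19 the marked run takes up the 10 bases before the listed start and does not reach it.
Rps6: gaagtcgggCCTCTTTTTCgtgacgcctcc
Rpl19: TCTCCCCTTCgcagataatgggcggagcct
Eef1a1: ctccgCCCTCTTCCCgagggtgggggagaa
Rack1: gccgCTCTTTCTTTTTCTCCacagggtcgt

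Of 25 glycolysis genes tested 3 fell and 0 rose, beside 4.34% and 4.13% of all tested genes. The median log2 fold change was -0.27, and -0.38 to -0.05 as single libraries were left out. Without TMM scaling it was -0.13, with 1 that rose. The 3 that fell were Slc2a1, the enolase Eno3 and Gapdh, the last from 5370.0, 4725 and 4094 CPM to 3058, 2652 and 2853 CPM (log2 fold change -0.71 ± 0.08). The summed level of the list was 9024, 8225 and 7497 CPM at D4 and 6128, 5761 and 5538 CPM at D6. Gapdh alone made up 4094 to 5370.0 of it at D4 and 2652 to 3058 at D6, and 22 of the 25 genes were not called. Of 77 genes of oxidative phosphorylation 4 fell and 0 rose, beside 4.34% of all tested genes that fell, with a median log2 fold change of -0.09 that became 0.05 without TMM scaling. The counts were 1 that fell and 3 that rose without scaling, 2 that fell with median-ratio scaling, and 1 that fell without D4 replicate 1, D4 replicate 2 or D6 replicate 2. The complex III subunit gene Uqcr10 and the complex II subunit genes Sdhd and Sdha were each called, and each lost the call in 5 of the 6 fits without 1 library, Uqcr10 (-0.42 to -0.11) and Sdhd (-0.56 to -0.37) in all but that without D6 replicate 1 and Sdha (-0.71 to -0.51) in all but that without D6 replicate 3. For cholesterol synthesis 0 of 24 genes passed the limma-voom test in either direction.

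Poly(A) tails were measured on the same reads, from the time the tail spends in the pore. The median tail of all kept reads was 95.2, 96.5 and 98.3 nt at D4 and 100.6, 102.7 and 101.7 nt at D6. The lowest D6 library was above the highest D4 library, and the means of 96.7 ± 1.52 nt and 101.6 ± 1.03 nt (SD, n = 3) differed by 4.99 nt (two-sided exact permutation p = 0.1, the smallest possible). Tails above 150 nt made up 20.9, 20.6 and 21.2% of reads at D4 and 23.5, 25.0 and 24.1% at D6. Tails of 30 to 90 nt went the other way, with 43.0, 41.6 and 41.4% at D4 and 39.9, 38.2 and 39.4% at D6. Both shares were without overlap between the days (exact permutation p = 0.1 for each). Tails under 30 nt were 3.38, 4.05 and 2.80% at D4 and 3.19, 3.78 and 2.90% at D6, overlapping, with the third replicate lowest and the second highest on both days.

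**Figure D4:**
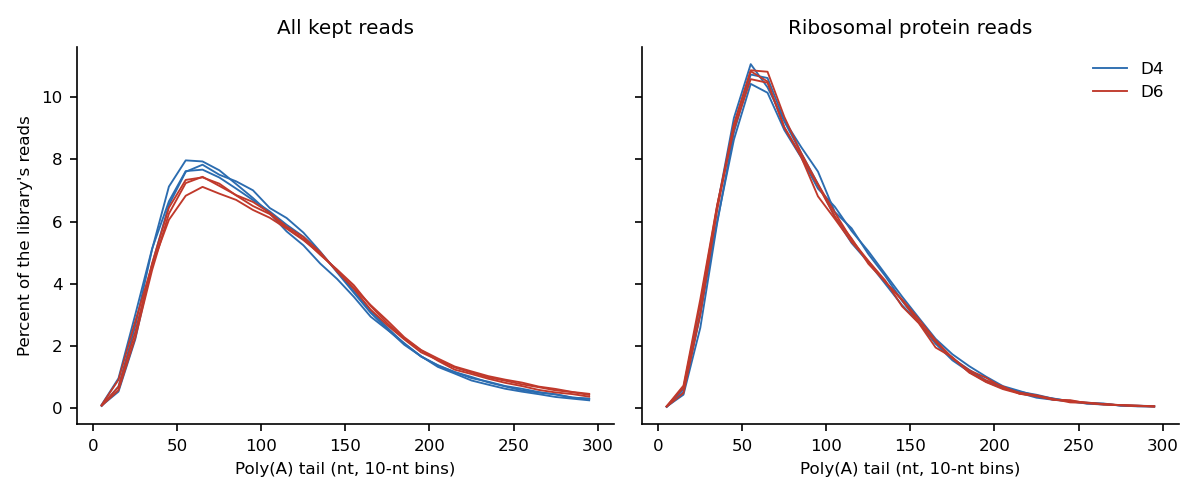
Percent of each library's reads by poly(A) tail length in bins of 10 nt, 1 line per library, D4 blue and D6 red, for all kept reads (left) and ribosomal protein reads (right). For all reads the D6 lines are lower around the peak (38.2 to 39.9% of reads between 30 and 90 nt, against 41.4 to 43.0%) and the share beyond 150 nt is larger, while the lines of the 2 days lie over each other for ribosomal protein reads.

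Technical values beside this difference were as follows. The share of all lines of a library with a passed tail estimate, which decides what tails are counted, was 73.2, 75.5 and 74.2% at D4 and 79.2, 80.5 and 78.9% at D6, without overlap, and its part in the result was not tested. Synthetic spike-in RNA was found almost wholly in replicate 1, with 354 reads at D4 and 773 at D6, and its median tail estimate was 61.9 and 62.4 nt. The spike named 256-A gave 107 and 113 nt and that named 64-A 63.5 and 59.0 nt. Library medians within single runs were 93.6 to 98.6 nt at D4 and 98.2 to 103.0 nt at D6. The median read rate, which scales the tail estimate, was 112 nt per second in the D4 libraries and 116 in the D6 libraries, where 1 of the 4 runs had the higher rate. In the largest D6 run at 112 nt per second the medians were 100.77, 102.79 and 101.75 nt, each above every D4 run. In the other 2 D6 runs at that rate they were 98.21 to 103.04 nt, and the lowest, of replicate 1, was below the 98.63 and 98.56 nt of D4 replicate 3 in 2 runs. The part of the run in the result was not tested, and run and day cannot be told apart.

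The difference in tails was not shared by all groups of messages. Ribosomal protein reads had medians of 80.0, 82.6 and 81.7 nt at D4 and 79.9, 80.2 and 80.0 nt at D6, a difference of -1.40 nt (exact permutation p = 0.2), and other TOP reads differed by 0.22 nt (p = 0.9, exact permutation). Reads outside both TOP lists had 104.0, 103.9 and 106.7 nt and then 109.7, 111.6 and 110.7 nt, a difference of 5.81 nt (exact permutation p = 0.1). Neuronal cytoskeleton reads went from 105.6, 106.9 and 108.4 nt to 111.3, 112.1 and 111.7 nt, and synaptic reads from 106.7, 103.1 and 102.0 nt to 114.5, 114.8 and 112.8 nt. In both groups every D6 library was above every D4 library. Reads of genes that rose in abundance had 109.2, 109.2 and 112.5 nt and then 114.4, 117.1 and 115.6 nt, a difference of 5.37 nt. Reads of those that fell, TOP lists set aside, had 97.4, 97.7 and 98.6 nt and then 100.0, 100.1 and 99.5 nt (difference 2.00 nt). For genes tested and not called the difference was 5.16 nt, close to that of genes that rose (exact permutation p = 0.1). Hox reads were long and variable, with 116.1, 116.3 and 120.9 nt at D4 and 126.5, 130.4 and 120.1 nt at D6, and the days overlapped. Oxidative phosphorylation reads had 94.1, 96.7 and 95.3 nt and then 95.4, 94.9 and 96.1 nt, a difference of 0.07 nt (exact permutation p = 0.9).

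**Figure D5:**
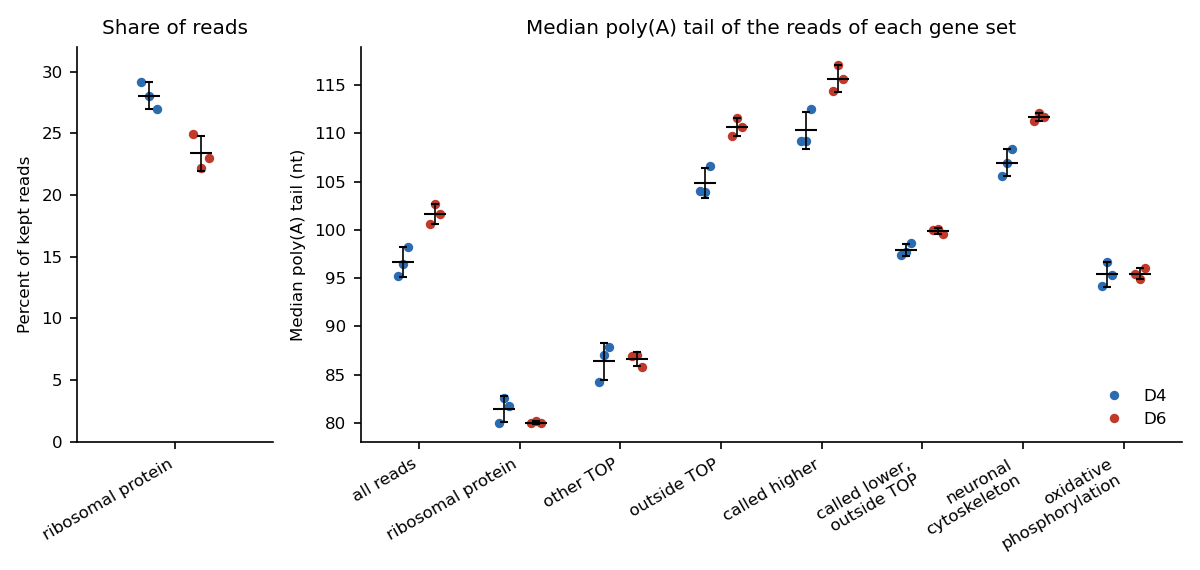
Share of kept reads from ribosomal protein genes (%, left, axis from 0) and median poly(A) tail of the reads of each gene set (nt, right, axis not from 0), 1 point per library, D4 blue and D6 red, with the mean and SD. The ribosomal protein share is 27.0 to 29.1% at D4 and 22.2 to 25.0% at D6, and the medians outside the TOP lists are higher at D6 (109.7 to 111.6 nt against 103.9 to 106.7 nt) while those of ribosomal protein reads lie between 79.9 and 82.6 nt on both days.

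Gene by gene, 3254 genes had at least 10 reads in each of the 6 libraries. A longer median tail at D6 was called by limma for 3 of them (0.0922%) and a shorter one for 0, with 221 (6.79%) and 40 (1.23%) at an unadjusted p under 0.05. The fitted difference of median tails was above 0 for 2116 genes (65%). All D6 libraries lay above all D4 libraries for 344 genes (10.6%) and below for 87 (2.67%). Sfpq, a splicing and paraspeckle RNA-binding protein (chr4:127021324-127037013, plus strand), had medians of 101, 102 and 94.9 nt at D4 and 121, 132 and 124 nt at D6, a log2 difference of 0.35 ± 0.08 (limma adjusted p = 0.034). Srrt, the ARS2 partner of the nuclear cap-binding complex, had 93.33, 69.03 and 83.48 nt and then 136, 132 and 129.8 nt. The F-box protein gene Fbxl16 had 68.7, 81.4 and 67.8 nt and then 138, 145 and 119 nt. None of the 3 changed in abundance by the limma-voom test (adjusted p of 0.431, 0.0933 and 0.36), and no tail call remained in any fit that left out 1 of the 6 libraries, or with the December runs of D6 alone. Without single libraries the log2 difference was 0.31 to 0.38 for Sfpq, 0.61 to 0.77 for Srrt (0.72 with all 6) and 0.82 to 1.00 for Fbxl16 (0.90 with all 6). With the mean tail in place of the median, 22 genes were called longer.

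Genes that rose in abundance had a longer median tail at D6 in 118 of 146 cases with enough reads (80.8%, median difference 5.55 nt), and those that did not pass the abundance test in 65.4% of 2813. Genes that fell had it in 53.9% of 295 cases, or in 65.0% of 214 with the TOP lists set aside. For ribosomal proteins it was 17 of 79, with a median of -1.04 nt, and 62 of the 79 had a higher share of tails under 30 nt at D6, beside 46.6% of all genes. Genes share the 6 libraries, and over libraries the ribosomal protein reads under 30 nt were 3.56, 3.68 and 3.04% at D4 and 4.03, 4.25 and 3.51% at D6, overlapping (exact permutation p = 0.3). Within the neuronal cytoskeleton 18 of 24 genes were longer, among synaptic genes 6 of 7 and among Hox genes 12 of 14, beside 65% of all genes, while among genes of oxidative phosphorylation it was 39 of 77. The shares of tails under 30 nt and of 30 to 90 nt gave 0 limma calls for a single gene in either direction, with 77 (2.37%) higher and 105 (3.23%) lower for the shortest class, and 41 (1.26%) higher and 180 (5.53%) lower for the middle class, at an unadjusted p under 0.05. The share of 30 to 90 nt was higher at D6 for 53 of the 79 ribosomal protein genes, beside 37.2% of all genes, while over libraries the share in ribosomal protein reads gave an exact permutation p of 0.6.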

How the data were processed

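Poly(A) RNA from P19 cells was sequenced directly on nanopore MinION flow cells. Per the labels and the methods of the study, the authors base called with Guppy, assigned barcodes with Deeplexicon, aligned with minimap2 2.20 to mm10 transcripts (GENCODE vM17) with repeats and spike-ins, and estimated tails with Nanopolish. The deposited per-read table gives each read's tail length, read rate, mapping quality (a score) and the confidence of its barcode call, a fraction that the authors took from Deeplexicon. A second deposited table of the authors' log2 fold changes against D0 and p-values from DESeq2 was not used.

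Reads with a passed tail call, class mRNA, no pseudogene family and no mitochondrial gene were tallied per gene and library. Tallies of genes with at least 30 reads over the 12 libraries were tested by limma-voom (limma 3.58.1, R 4.3.3; TMM factors, pseudocount 0.5 reads, all 12 libraries, threshold 0.05 after adjustment). Tail medians and class shares were tested by limma weighted by reads, in D4 and D6, at 10 or more reads in every library. Values per library used two-sided exact permutation tests. Scripts were tested on simulated data. Python 3.11.15 was used, gene positions came from GENCODE vM21 and promoters from RefSeq. The members, gene lists and promoter motifs were chosen with earlier results of these data known. Named genes were the 12 largest rises and 12 largest falls among called genes whose D4 and D6 libraries did not overlap and averaged 20 reads or more, fixed neuronal and progenitor genes, up to 4 called members of each list by reads, and genes with a called tail change. Other list members and the 4 promoter examples beyond these were chosen after their values were seen. Replicates of 1 day shared runs and differ by barcode. With 252203 to 435389 reads per library, a gene of 10 CPM rests on few reads, and counting error limits it. Some items are not reported here.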

Additional observations from a re-analysis of the deposited data

How the results depend on the processing

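The 384 rises became 233 with 10 reads in every library, 251 with the December D6 runs, 238 by limma-trend, 231 at a mapping quality of 10 and 584 without scaling, and 201 to 384 as single libraries were left out. The 404 falls became 261, 262 (December runs), 247 (January runs), 182 (mapping quality), 255 (no scaling) and 238 (libraries thinned to one depth), and 200 to 370. The 3 longer tails became 1 with 30 reads per library, 22 with mean tails, and 0 with December runs, a barcode confidence of 0.9, mapping quality, no weights, thinning, the replicate block or any library left out (0 to 0). Against 0 lower class shares, limits of 25 and 85 nt gave 1 for the short and 2 for the middle class, and thinning 2 for the short. The log2 fold change for abundance of Vim (0.05) was -0.0111 to 0.1549 as single libraries were left out, below 0 without D4 replicate 3, and that for abundance of Eef2 (-0.11) was -0.1594 to 0.00554, above 0 without D4 replicate 3, and 0.0409 at the mapping quality limit and 0.0418 without scaling. The percent of all reads with tails under 30 nt (difference -0.12 points) ranged from -0.426 to 0.198, at 0.198 without D4 replicate 2 and 0.0753 without D6 replicate 3. The causes were not tested. The split of D6 by run month was chosen after seeing the data. The replicate number is an adapter barcode. Same-numbered libraries correlated at 0.153, 0.0347 and 0.0712 in their deviations of log2 CPM, not all over 0.1, so the numbers were not taken to pair the samples. For the share under 30 nt they correlated at 0.0728, 0.0844 and 0.0472, with every other pair below 0, a hint from the data and not from the design. With the replicate as a block 266 genes rose and 395 fell. Of 85 named genes with a call, 60 kept it in each alternative in which they were tested, and the 25 others lost it in at least 1. Some had too few reads to be tested in all 20.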

Other observations

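Among all genes tested 4.13% rose and 4.34% fell. Of 21 extracellular matrix genes tested, 3 rose, namely Sparc, which encodes a collagen-binding matrix protein, the fibrillar collagen gene Col5a2 and the IGF-binding protein gene Igfbp5, and Lgals1 fell. Among 27 stress genes 0 rose and 4 fell: the metallothioneins Mt1 and Mt2, the asparagine synthetase gene Asns and the thioredoxin-binding Txnip. Of 27 chromatin genes, the histone chaperone Rbbp4 and the DNA methyltransferase Dnmt3a rose and 3 fell. As single libraries were left out, 1 to 3 chromatin genes rose and 1 to 5 fell, with 1 that fell without D4 replicate 2 and 5 without D4 replicate 3, and 1 that rose without D4 replicate 1, D4 replicate 2, D6 replicate 2 or D6 replicate 3. Of 3 tested neural crest genes, Ngfr rose and 1 fell, with 0 that fell without D4 replicate 3, D6 replicate 1 or D6 replicate 2 and 0 that rose without D6 replicate 3. Of 6 tested glial genes, the membrane protein gene Gpm6b rose (it had too few reads to be tested without D6 replicate 2 or D6 replicate 3) and the lipid carrier gene Apoe fell, while 0 of 9 pluripotency genes passed the limma-voom test in either direction. The call of Sparc was lost at a mapping quality of 10, those of Txnip (-0.84) and Rbbp4 (0.58) without D4 replicate 2, that of Apoe without D4 replicate 3 (-1.19) or D6 replicate 3 (-0.74), and that of Col5a2 without D4 replicate 1 (1.46), D4 replicate 2 (1.00), D6 replicate 2 (1.43) or D6 replicate 3 (1.28).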
